A study of Mus musculus with 20 samples.

Results

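J17b is one of 6 mouse lines beside Wild type in a brain RNA-seq series of 20 libraries. The comparison described here sets the 2 J17b libraries that were analysed against the 3 Wild type libraries, 5 of the 20 in all, over the 16063 genes with enough counts of 23845 listed. All samples are labelled brain from strain C57/Bl6J. The titles call Wild type c57, and 15 further libraries come from J17a, J27a, J27b, J1 lf/lf and J2 lf/lf (3 libraries per line). All mice were fed a normal diet, and the series, made of single-isoform knockouts and controls, asked about exon usage and about the model itself. The labels leave the codes unexplained: they do not say which form a J17b mouse lacks, how many clones founded the line, or how old the mice were. Nor do they tie libraries to individual mice, and p-values therefore cover only the spread among these samples, which may be technical.

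JNK1, JNK2 and JNK3 are stress-activated MAP kinases encoded by Mapk8, Mapk9 and Mapk10. Upstream kinases activate them in modules held together by scaffold proteins, phosphatases switch them off, and their substrates include the transcription factor Jun and proteins of the neuronal cytoskeleton. Brain expresses all of these kinases, and JNK1 is also known for dampening insulin signalling through the insulin receptor substrates. Transcripts of Mapk8 carry either of a pair of mutually exclusive exons in the kinase domain, known as the 7a and 7b forms.

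These 2 exons are shown because the title of the series names a JNK7b isoform and the line's code ends in the same letter. In GENCODE release 21 (mm10), Mapk8 lies on the minus strand of chromosome 14 at 33377898 to 33447158. The upstream exon of the pair is at 33390673 to 33390744 and the downstream exon at 33390242 to 33390313. Each has 72 bases and stands in 2 of the coding transcripts. They differ at 27 bases, marked in capitals (62.5% identical), and 7 of the 23 whole codons change the residue. Which of them is called 7a was not assigned here.
upstream exon: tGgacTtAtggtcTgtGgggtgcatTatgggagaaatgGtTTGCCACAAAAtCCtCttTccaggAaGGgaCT
downstream exon: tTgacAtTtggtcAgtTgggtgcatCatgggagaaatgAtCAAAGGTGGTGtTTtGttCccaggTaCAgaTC
The deposited values are sums per gene, so they show how much Mapk8 was measured and not which exon it carried.

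Some libraries stood apart. Wild type replicate 3 had low forebrain glutamatergic markers (3019 summed CPM, counts scaled to library size, against 4801 and 4707 in Wild type replicates 1 and 2), Wild type replicate 2 had high anterior pituitary markers (2692 CPM against 463 and 483), J17b replicate 1 had high hindbrain markers, and J17b replicate 2 had high choroid plexus markers. All Wild type libraries have a title number of at most 10 and both J17b libraries one above 10, so the order of the titles and the group cannot be told apart in this comparison. Totals ran from 21761943 to 33828755 estimated counts in the 5 libraries.

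J17b differed from Wild type in 4 genes, 0.0249% of those tested (edgeR quasi-likelihood test, adjusted p under 0.05). Ide, Mapk8 and Btaf1 fell, and Rn45s rose. The median log2 fold change over all genes was -0.0045, and 76.7% of genes lay within 0.25 of 0 in either direction. An unadjusted p under 0.05 was reached by 939 genes, 5.85%, of which 551 were higher and 388 lower in J17b. Both J17b libraries lay above all 3 Wild type libraries in 8.57% of genes and below all of them in 6.86%.

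Mapk8, which encodes JNK1, was measured at 117.8, 108.9 and 140.4 CPM in Wild type and at 74.6 and 79.2 CPM in J17b. The groups did not overlap, and no library of the other lines lay below 102 CPM. Mapk8 thus fell to 62.8% of its mean in Wild type (76.9 ± 3.21 CPM in J17b, n = 2, against 122 ± 16.2 CPM, n = 3, both SD; log2 fold change -0.67, 95% interval -0.88 to -0.46, edgeR adjusted p = 0.0128). The call was lost without J17b replicate 1 (log2 fold change -0.63) or replicate 2 (-0.71) and with only these 5 libraries in the fit (-0.67). It was lost with limma too (-0.64 and -0.66, adjusted p = 0.118 and 0.163) and with the replicate block (-0.64, edgeR adjusted p = 0.0598). A term for title numbers above 10 also removed it (-0.74, edgeR adjusted p = 0.29). That term is set by J17a alone, the line with libraries on both sides of 10. The log2 fold change of Mapk8 stayed between -0.75 and -0.56 over all alternatives.

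The other JNK genes did not pass the test. Mapk9, for JNK2, was at 303, 293 and 360 CPM in Wild type and at 317 and 317 CPM in J17b, inside the Wild type range (log2 fold change -0.01, 95% interval -0.64 to 0.63). The fit takes its spread from every group, and among these J2 lf/lf ran from 58.1 to 177 CPM. Mapk10, for JNK3, was at 393, 385 and 383 CPM in Wild type and at 369 and 366 CPM in J17b, lower in both libraries by 0.08 on the log2 scale (95% interval -0.23 to 0.08). On the scale of TPM, which divides by gene length, Mapk8 made up 14.6%, 13.98% and 15.7% of the 3 JNK genes in Wild type and 9.81% and 10.4% in J17b. Mapk9 took 51.8 ± 0.103% and Mapk10 38.1 ± 0.295% of the JNK TPM in J17b (SD, n = 2), against 48.0 ± 1.99% and 37.2 ± 2.82% in Wild type (SD, n = 3).

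Ide had the smallest p of all genes. It encodes the insulin-degrading enzyme, a metalloprotease that cleaves insulin and amyloid beta. Its level was 112.9, 109.1 and 105.0 CPM in Wild type and 51.9 and 61.7 CPM in J17b. The groups were far apart relative to their spread, and Ide fell to 52.1% of Wild type (log2 fold change -0.94, 95% interval -1.17 to -0.72, edgeR adjusted p = 0.000271). Ide kept its call in each of the 5 fits that left out 1 of these libraries and lost it with only these 5 libraries in the fit (adjusted p = 0.392). Its level was not the same in the other lines: J1 lf/lf libraries had 54.2 to 57.9 CPM, like J17b, while those of J17a had 79.1 to 91.1 CPM, J27a 82.7 to 88.3 CPM, J2 lf/lf 81.2 to 111 CPM and J27b 106 to 112 CPM.

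Btaf1, a regulator of TATA-binding protein, lies near Ide on chromosome 19. Btaf1 was at 67.6, 66.4 and 62.2 CPM in Wild type and at 38.8 and 43.9 CPM in J17b, without overlap, and fell to 63.2% (log2 fold change -0.66, SE 0.11, edgeR adjusted p = 0.0442). The Btaf1 call passed narrowly: it was lost without Wild type replicate 1 (edgeR adjusted p = 0.144) or 2 (0.0709) and without J17b replicate 1 (0.188) or 2 (0.298). It was also lost with only these 5 libraries, the replicate block, limma, Rn45s left out, or the term for title numbers above 10. Over all alternatives its log2 fold change ran from -0.75 to -0.50, the smallest with that term. As for Ide, the J1 lf/lf libraries (36.7 to 43.5 CPM) were at the J17b level and no library of J2 lf/lf, J17a, J27a or J27b was below 52.6 CPM.

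**Figure D1:**
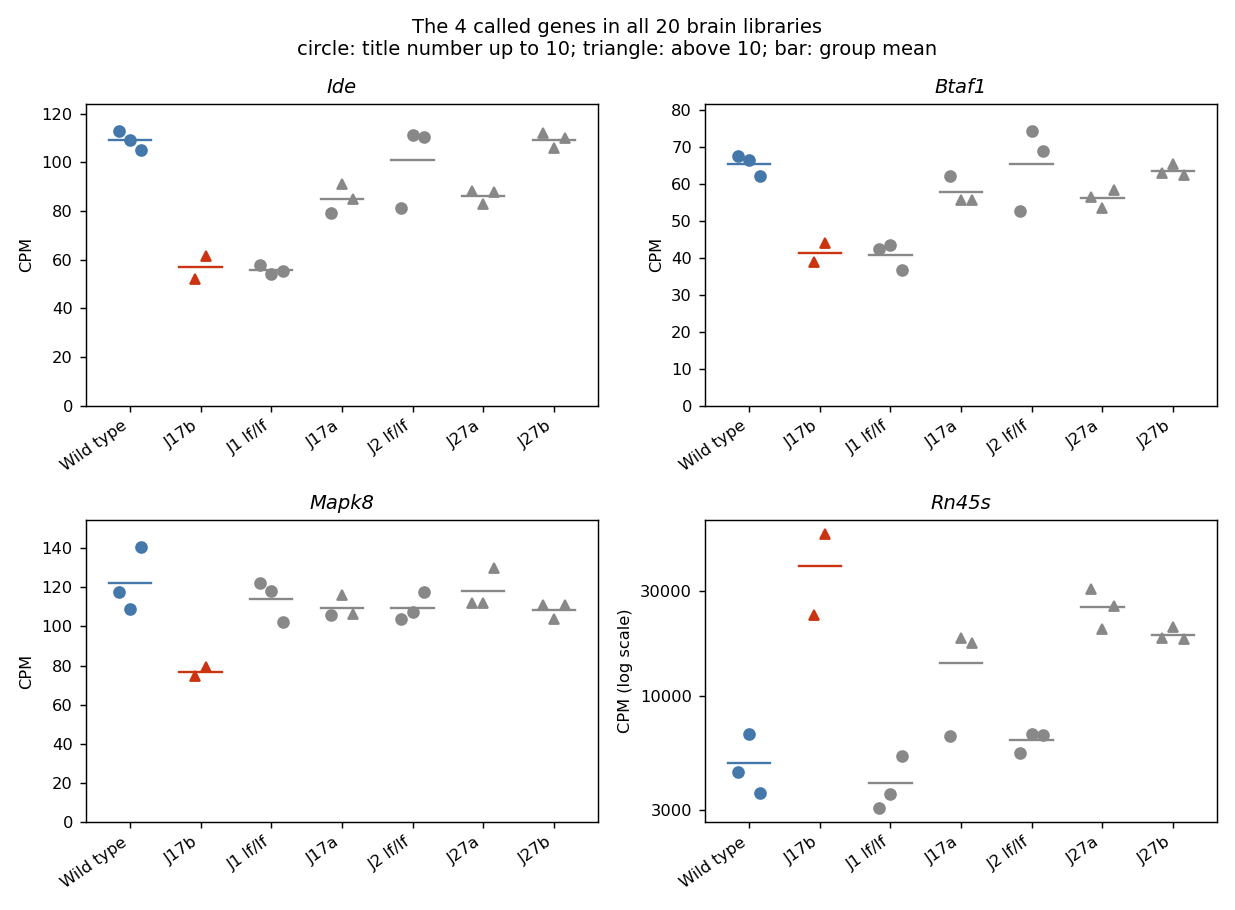
Level of each called gene in every library, in CPM (log axis for Rn45s), by group; bars are group means. J17b is the lowest group for Mapk8, at 74.6 and 79.2 CPM, and shares its low Ide and Btaf1 with J1 lf/lf, while Rn45s is at least 17321 CPM in every library with a title number above 10.

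The genes beside Ide and beside Mapk8 were examined to see how far the lower levels reached along the chromosome. Among the genes between Btaf1 and Ide are Cpeb3, an RNA-binding protein gene, at log2 fold change -0.01 (SE 0.07), and March5, a mitochondrial ubiquitin ligase gene, at -0.04 (SE 0.07). Both were near 0, so the run of lower genes was not unbroken. Fgfbp3, which encodes a fibroblast growth factor binding protein and lies on the far side of Btaf1, was at 11.5, 8.90 and 5.59 CPM in Wild type and 5.29 and 5.65 CPM in J17b. Wild type replicate 3 fell between the J17b values, and Fgfbp3 did not pass (log2 fold change -0.67, unadjusted p = 0.0101, edgeR adjusted p = 0.672). Of the 20 nearest tested genes of Ide, within a stretch of 2228 kb, 1 was called, and that was Btaf1. A duplication that covers Ide and Fgfbp3 has been described as segregating within C57BL/6J mice. Copy number was not measured in these libraries, and its part in the level of Ide was not tested.

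Of the 20 nearest tested genes of Mapk8, within 2173 kb of chromosome 14, 0 were called by edgeR and 1 had an unadjusted p under 0.05. That one was Zfp488, an oligodendrocyte transcription factor gene, at 0.49 (SE 0.22). The median log2 fold change of these neighbours was 0.03, with 6 above and 1 below all Wild type libraries, where 8.57% and 6.86% of all genes lay. Mapk8 was thus the one gene called in its stretch.

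**Figure D2:**
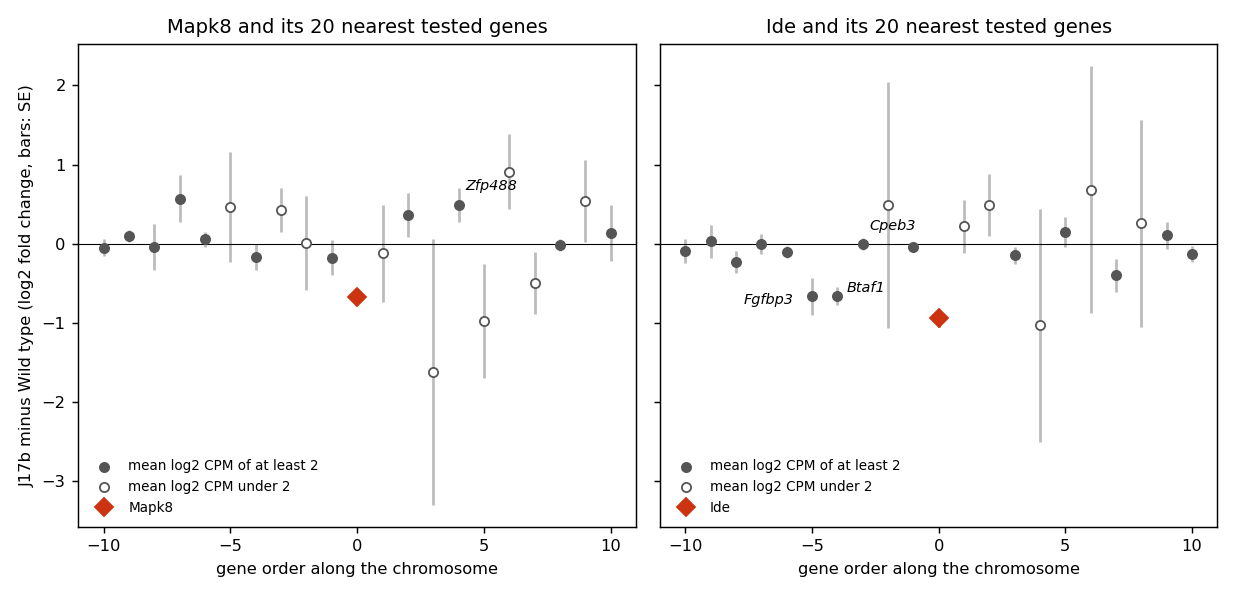
Log2 fold change with its SE for the 20 tested genes nearest to Mapk8 and to Ide, against their order along the chromosome. Mapk8 is at -0.67 among neighbours with a median of 0.03. Rbp3 (-1.62) and Anxa8 (-0.98), both with a mean log2 CPM under 2, lie lower but were not called. Btaf1 and Fgfbp3 lie near -0.67 on the side of Ide toward lower coordinates, and Cpeb3, between Btaf1 and Ide, lies near 0.

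Rn45s, the precursor of ribosomal RNA, was at 4487, 6658 and 3582 CPM in Wild type and at 23400 and 54698 CPM in J17b, and rose 7.95-fold (log2 fold change 2.99, SE 0.44, edgeR adjusted p = 0.0443). The J17b libraries differed from each other by more than the whole Wild type range. Rn45s was 17321 to 30554 CPM in the 8 libraries of other lines with a title number above 10 and 3066 to 6718 CPM in the 7 with a number of at most 10. J17b replicate 1 thus lay inside the range of the former and replicate 2 above it. With the term for title numbers above 10, set by J17a alone, its log2 fold change was 1.55 (edgeR adjusted p = 0.692). The call was lost without J17b replicate 2 (log2 fold change 2.25), Wild type replicate 1 (edgeR adjusted p = 0.233) or Wild type replicate 2 (0.0709). It was lost too with limma, with no filter on low counts, with only these 5 libraries and with the replicate block. Since poly(A) selection precedes sequencing, the share of precursor that reached the libraries may vary, which was not tested.

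Other transcripts were highest in J17b replicate 2 too. Lars2, the mitochondrial leucyl-tRNA synthetase, was at 149, 185 and 110 CPM in Wild type and 411 and 1064 CPM in J17b (log2 fold change 2.32, edgeR adjusted p = 0.101). Malat1, a nuclear noncoding RNA, was at 920, 642 and 926 CPM against 1749 and 4698 CPM (1.96, adjusted p = 0.257). Kcnq1ot1, the antisense RNA of an imprinted domain, was at 18.2, 12.7 and 25.8 CPM against 30.3 and 103 CPM (1.83). In each of these 3 genes J17b replicate 2 was the highest, at more than the sum of the Wild type values. J17b replicate 1 lay inside the range of other-line libraries with a title number above 10. These had 325 to 542 CPM of Lars2, 1159 to 3095 CPM of Malat1 and 22.6 to 72.2 CPM of Kcnq1ot1. Other-line libraries with a number of at most 10 had 81.3 to 190, 593 to 1147 and 11.9 to 27.1 CPM. Cdr1, counted under a gene known for a circular RNA, was chosen after its values were seen. It was at 68.7 CPM in J17b replicate 1, inside the Wild type range of 25.7 to 81.2 CPM, and at 529 CPM in replicate 2. Other-line libraries had 54.8 to 110 CPM of Cdr1 at title numbers above 10 and 21.7 to 36.0 CPM at lower ones. Of 11 tested ribosomal precursor and nuclear RNAs, 7 lay above all Wild type libraries (8.57% of all genes did), 0 below, and 1 was called. Their median log2 fold change was 1.08, and 0.48 without J17b replicate 2. This list holds Rn45s, its called member, and was written with earlier results of these data known. Its counts are thus no separate result. DESeq2 called 16 genes (0.0997% of those tested), 13 of them higher in J17b, and Lars2, Malat1, Xkr6 and Cdr1 were among these 13.

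Among the 15 largest rises by the naming rule, all but Rn45s missed the threshold. Among them were a pair of genes of serotonin neurons. Slc6a4, the serotonin transporter, was at 1.3, 2.84 and 3.96 CPM in Wild type and 7.28 and 7.96 CPM in J17b (log2 fold change 1.5, edgeR adjusted p = 0.667). Tph2, the rate-limiting enzyme of serotonin synthesis in brain, was at 3.31, 6.80 and 11.9 CPM against 15.6 and 16.96 CPM (1.16, edgeR adjusted p = 0.881). Its log2 fold change was -0.34 with the term for title numbers above 10, set by J17a alone. J17a libraries had 4.29 to 11.3 CPM of Slc6a4 and 6.48 to 18.3 CPM of Tph2, ranges that hold the J17b values. The remaining lines reached at most 5.34 CPM of Slc6a4 and 12.8 CPM of Tph2, both in J1 lf/lf. Fev, a transcription factor of these neurons, was higher in both J17b libraries too, at 0.57 and 0.71 CPM against 0.04 to 0.47 CPM. Of the 12 monoamine and cholinergic markers, which include these 3 genes, 7 had a positive and 5 a negative log2 fold change, 5 lay above and 1 below all Wild type libraries (8.57% and 6.86% of all genes), and 0 were called by edgeR. Their summed level was 123 and 121 CPM in J17b against 76.7, 106 and 115 CPM in Wild type. In bulk tissue, more cells of a type in the piece that was taken and more RNA per cell cannot be told apart.

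Irs4, an insulin receptor substrate, was at 8.09, 5.41 and 8.33 CPM in Wild type and 14.9 and 14.9 CPM in J17b (log2 fold change 1.04, SE 0.34, edgeR adjusted p = 0.624). The homeobox gene Irx3 was at 3.04, 3.46 and 3.25 CPM against 6.31 and 6.46 CPM (0.97, SE 0.25), an even difference in which each group was tight. In the other lines Irx3 ran from 2.94 to 6.68 CPM, across the J17b values, and Irs4 reached 14.9 CPM. Edn3, the peptide endothelin 3, was at 4.67, 5.82 and 4.88 CPM against 9.61 and 8.48 CPM (0.82, SE 0.21). Fmo2, a flavin monooxygenase, stood at 0.60 without J17b replicate 1, where it was 9.79 CPM, in place of 1.15. J1 lf/lf libraries had 5.36 to 8.88 CPM of Edn3 and 3.79 to 8.95 CPM of Fmo2, ranges that hold J17b replicate 2. No library of J2 lf/lf, J17a, J27a or J27b was above 7.29 CPM of Edn3 or 3.98 CPM of Fmo2. The remaining large rises were Xkr6, Trh, Arhgap36, Glra1 and Creb5, with log2 fold changes from 0.81 for Creb5 to 1.3 for Xkr6. Other-line libraries spanned both J17b values in Trh, Arhgap36 and Glra1, while J17b replicate 2 lay above them in Xkr6 and Creb5.

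The transcription factor gene Pou2f1, among the 15 smallest p, was at 36.7, 30.4 and 33.8 CPM in Wild type and 40.8 and 49.5 CPM in J17b, without overlap (log2 fold change 0.43, SE 0.10, edgeR adjusted p = 0.419).

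The largest falls apart from the called genes were small in level. Nr4a3, an activity-induced nuclear receptor, was at 15.2, 11.3 and 7.25 CPM in Wild type and 5.95 and 5.94 CPM in J17b (log2 fold change -0.92, edgeR adjusted p = 0.461), below every library of the other lines (7.01 to 15.5 CPM). Rasd1, a small GTPase induced by glucocorticoids, was at 19.1, 16.8 and 15.6 CPM against 8.78 and 11.2 CPM (-0.78), with replicate 1 below all other libraries. Arhgap25, a Rac GTPase-activating protein of blood cells, was at 8.09, 8.07 and 6.11 CPM against 4.06 and 3.72 CPM (-0.93). Ednra, the endothelin A receptor, was at 4.44, 3.99 and 6.66 CPM against 2.69 and 3.20 CPM (-0.76). Fibcd1 and Erdr1 were high in Wild type replicate 1, at 62.1 and 52.3 CPM, and without it their log2 fold changes were -0.22 and -0.22 in place of -0.74 and -0.78. The others, among them Bfsp2, Epb4.1l4a, Ppp1r3g and Arhgap19, were between -0.77 for Bfsp2 and -0.61 for Arhgap19.

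**Figure D3:**
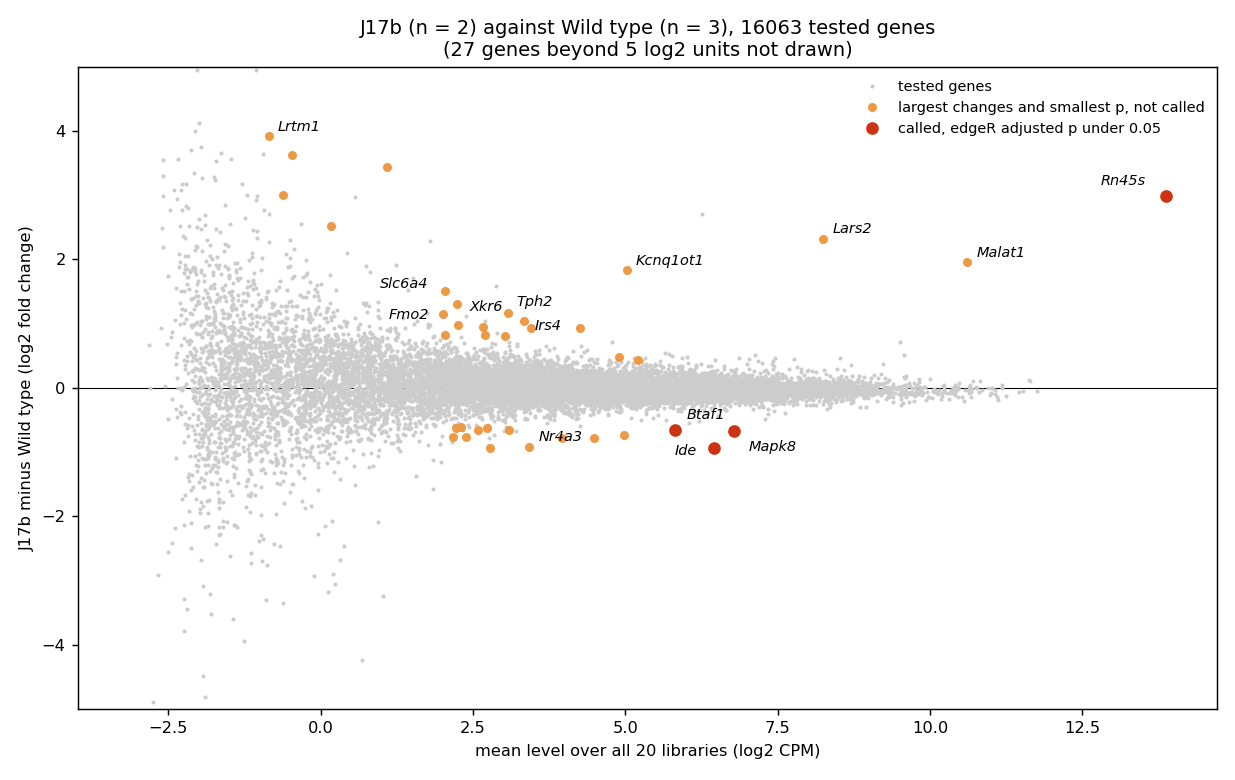
Log2 fold change of J17b against Wild type for each tested gene, against its mean level over all 20 libraries in log2 CPM; 27 genes beyond 5 log2 units are not drawn. The 4 called genes stand in red, with Rn45s at 2.99 and Ide, Mapk8 and Btaf1 between -0.94 and -0.66, and most named rises and falls sit at low levels.

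Apart from Mapk8 the JNK pathway showed no called gene. Of 17 tested kinases upstream of JNK, 1 lay above and 2 below all Wild type libraries (8.57% and 6.86% of all genes), and the median was 0.01. The direct activators Map2k4 and Map2k7 overlapped Wild type, at -0.14 (SE 0.10) and 0.01 (SE 0.09). Map3k5, the stress-activated kinase ASK1, was at 50.01, 51.1 and 51.3 CPM in Wild type and 40.3 and 45.8 CPM in J17b (-0.24, edgeR adjusted p = 0.722), and Map3k1 was at 0.24 (SE 0.16). None of 6 scaffolds and none of 12 MAP kinase phosphatases lay outside the Wild type range in both libraries.

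Transcription factors and substrates downstream held no called gene. Of 12 AP-1 and ATF factors 0 lay above and 1 below all Wild type libraries (8.57% and 6.86% of all genes), and Fosl2 stood at 39.3, 36.1 and 25.6 CPM in Wild type against 27.9 and 26.9 CPM. Of 16 cytoskeletal substrates, 1 was above, Pxn (paxillin, 0.26), and 1 below, the kinesin gene Kif5c (-0.08). Immediate early genes, the rapid response to neuronal activity, had a median of -0.26 over 15 members with 2 below all Wild type libraries and 0 above, against those shares. Egr3 was at 176, 172 and 119 CPM in Wild type and 120 and 102 CPM in J17b (-0.48), and Egr1 at 222, 223 and 121 CPM against 143 and 144 CPM (-0.39). Wild type replicate 3 was as low as J17b in both genes, and the list median was -0.57 without Wild type replicate 3 and -0.01 without Wild type replicate 2.

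Insulin and IGF signalling genes were mixed. Of 30 members, 4 lay above and 2 below all Wild type libraries (8.57% and 6.86% of all genes), 0 were called, and the median was -0.03. Insr, the insulin receptor, was at 75.6, 77.2 and 79.8 CPM in Wild type and 90.5 and 90.9 CPM in J17b (log2 fold change 0.23, 95% interval 0.08 to 0.38, edgeR adjusted p = 0.61), just above the other lines, which reached 89.0 CPM. The IGF-binding protein genes Igfbp2 and Igfbp5 stood at 0.42 and -0.23, and Mtor, the growth kinase, at 0.10. Of the 9 peptidases known to degrade amyloid peptide, 2 lay above (Ece2 at 0.23 and Ctsd at 0.12) and 2 below, against the same shares of all genes, and of these Ide was the one called. Mme, neprilysin, was at 20.4, 22.8 and 27.4 CPM against 18.4 and 21.2 CPM and overlapped Wild type.

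Chaperones of the endoplasmic reticulum (ER) fold secreted and membrane proteins. All 18 of the list had a negative log2 fold change, 8 lay below all Wild type libraries where 6.86% of all genes did, 0 were called, and the median was -0.19. Hspa5, the chaperone BiP, was at 385, 354 and 353 CPM in Wild type and 297 and 291 CPM in J17b (log2 fold change -0.31, edgeR adjusted p = 0.61). Pdia4, a disulfide isomerase, was at 46.7, 43.7 and 46.4 CPM against 35.8 and 35.4 CPM (-0.36), and Manf, a secreted stress protein, at 41.8, 40.9 and 41.7 CPM against 33.9 and 33.0 CPM (-0.31). These J17b values lay apart from Wild type but inside the range of the other lines, which was 283 to 377 CPM for Hspa5, 34.9 to 47.2 CPM for Pdia4 and 32.0 to 41.9 CPM for Manf. Against the other 5 lines the list median was -0.11. Xbp1, a transcription factor that induces such chaperones, was at -0.26 (SE 0.09) and Calr, calreticulin, at -0.21 (SE 0.08). Cytosolic heat shock genes had 15 of 15 negative values, 5 below all Wild type libraries and a median of -0.14, with Hsph1 at -0.25, Hspa8 at -0.19 and Hsp90ab1 at -0.14. The medians of both lists stayed negative in each fit that left out 1 of the 5 libraries. Agreement in sign was not particular to these lists. Negative values were found in 18 of 20 nuclear-encoded respiratory chain genes, 19 of 22 ribosomal protein genes and 12 of 12 forebrain glutamatergic markers. The medians of those lists were -0.05, -0.05 and -0.19.

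In the circadian clock list, 1 of 16 genes lay above and 3 below all Wild type libraries, where 8.57% and 6.86% of all genes lay. Per3 was at 35.2, 33.7 and 36.2 CPM in Wild type and 42.0 and 45.8 CPM in J17b (log2 fold change 0.33, edgeR adjusted p = 0.61), while Arntl (-0.32), Nr1d1 (-0.24) and Bhlhe40 (-0.33) were lower. The labels used here give no time of day for the samples. Mt2, a metallothionein, was at 134, 160 and 136 CPM against 206 and 203 CPM (0.51, adjusted p = 0.662), above each library of the other lines as well (94.97 to 178 CPM), and Nqo1, a quinone reductase, was at 0.49. These were the 2 of 14 metallothionein and oxidative stress genes above Wild type. Of 14 hypothalamic peptide and receptor genes 4 were above and 2 below, against the same shares, and 0 were called by edgeR. Lepr, the leptin receptor, was at 3.38, 2.19 and 4.40 CPM against 4.67 and 5.84 CPM (0.67), Gal, galanin, at 1.47, 1.66 and 0.44 CPM against 2.38 and 3.20 CPM (1.21), and Mc4r, the melanocortin 4 receptor, at 3.24, 3.16 and 2.85 CPM against 1.68 and 2.31 CPM (-0.63).

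**Figure D4:**
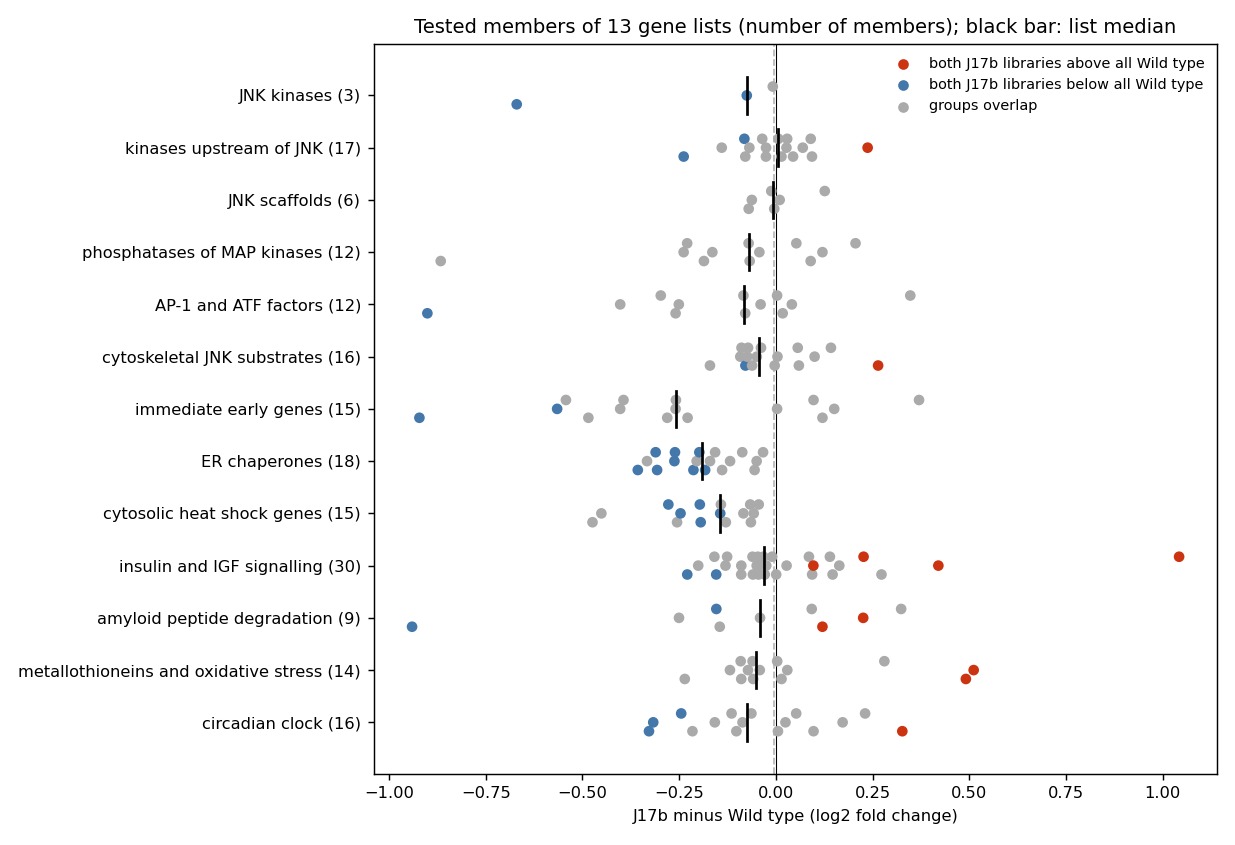
Log2 fold change of J17b against Wild type for each tested member of 13 lists; red and blue points are genes whose J17b libraries both lie above or below all Wild type libraries, and black bars are list medians. All ER chaperones and cytosolic heat shock genes lie left of 0, with medians of -0.19 and -0.14, whereas the lists of the JNK pathway are spread around 0 apart from Mapk8.

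Of 12 genes listed for the Ide region 2 were called, Ide and Btaf1 (0.0249% of all genes were). In this list 1 lay above and 2 below all Wild type libraries (8.57% and 6.86% of all genes). Of 6 genes known to differ among C57BL/6 substrains 0 lay above and 2 below, against the same shares, with Ide the one called. Both lists hold Ide and were written with earlier results of these data known, so these calls are no separate result. In 6 other lists 0 genes were called by edgeR, and the counts above and below all Wild type libraries stand against 8.57% and 6.86% of all genes. Nuclear-encoded respiratory chain genes had 0 of 20 above and 2 below, ribosomal protein genes 0 of 22 and 3, glutamate and GABA receptors 2 of 36 and 2, inflammation and interferon genes 2 of 16 and 1, thyroid hormone genes 1 of 12 and 2, and glucocorticoid response genes 0 of 14 and 1. Their medians ran from -0.06 to 0.04.

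Summed markers of cell types and regions differed between libraries of the same group. Forebrain glutamatergic markers had summed levels of 4801, 4707 and 3019 CPM in Wild type and 4086 and 3469 CPM in J17b. Their sum was 3853 to 4956 CPM in the other lines, so J17b replicate 2 lay below those too. All 12 such markers had a negative log2 fold change and 0 were called by edgeR. Below all Wild type libraries lay 2 of the 12 (6.86% of all genes). These were the transcription factor gene Neurod6 at 59.5, 50.7 and 50.8 CPM against 43.3 and 32.6 CPM (-0.50, edgeR adjusted p = 0.557) and Nrn1, neuritin, at 160, 148 and 140 CPM against 132 and 109 CPM (-0.31). Camk2a, an abundant kinase of these neurons, was at 2473, 2496 and 1512 CPM against 2072 and 1838 CPM and overlapped. Hindbrain markers, mostly Hox genes, were positive in 17 of 17 with a median of 1.73, and J17b replicate 1 set this median: their sum was 71.0 CPM there, 23.0 CPM in J17b replicate 2 and 12.03 to 26.7 CPM in Wild type, and without replicate 1 the median was -0.05. Hoxb5 showed the same, at 8.20 CPM in J17b replicate 1 and 1.65 CPM in replicate 2. Choroid plexus markers were positive in 13 of 13, and in 0 of them did both J17b libraries lie above all Wild type libraries. Their sum was 1074 and 2579 CPM in J17b and 1238, 724 and 1798 CPM in Wild type, with Ttr, transthyretin, at 503 and 1399 CPM in the J17b libraries, and their median was -0.27 without J17b replicate 2. Ependymal markers, of the ciliated lining of the ventricles, had 4 of 9 above all Wild type libraries (8.57% of all genes), with sums of 42.0 and 37.0 CPM against 34.4, 29.1 and 30.6 CPM, Tekt1 at 0.63 (SE 0.24) and Rarres2 at 0.56 (SE 0.23). The part of these marker differences in the other results was not tested.

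Cerebellar markers summed to 1845 and 2519 CPM in J17b and to 1612, 1782 and 2337 CPM in Wild type, and olfactory bulb markers to 266 and 288 CPM against 216, 225 and 259 CPM. Anterior pituitary markers had a median of -5.40 that came from Wild type replicate 2, where growth hormone, Gh, was 1008 CPM against 0.34 and 5.27 CPM in Wild type replicates 1 and 3 and 0 and 8.48 CPM in J17b. Without Wild type replicate 2 the median was 0.29. Astrocyte, oligodendrocyte, oligodendrocyte precursor, microglial, endothelial and mural, meningeal, GABAergic, striatal and subcortical glutamatergic markers had medians from -0.15 to 0.09. Of 12 astrocyte markers 3 lay above all Wild type libraries, and at most 1 member of each other list among these did. At most 1 member of a list lay below. Over all genes the shares above and below were 8.57% and 6.86%. Red blood cell markers summed to 957 and 706 CPM in J17b and 552, 686 and 805 CPM in Wild type.

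**Figure D5:**
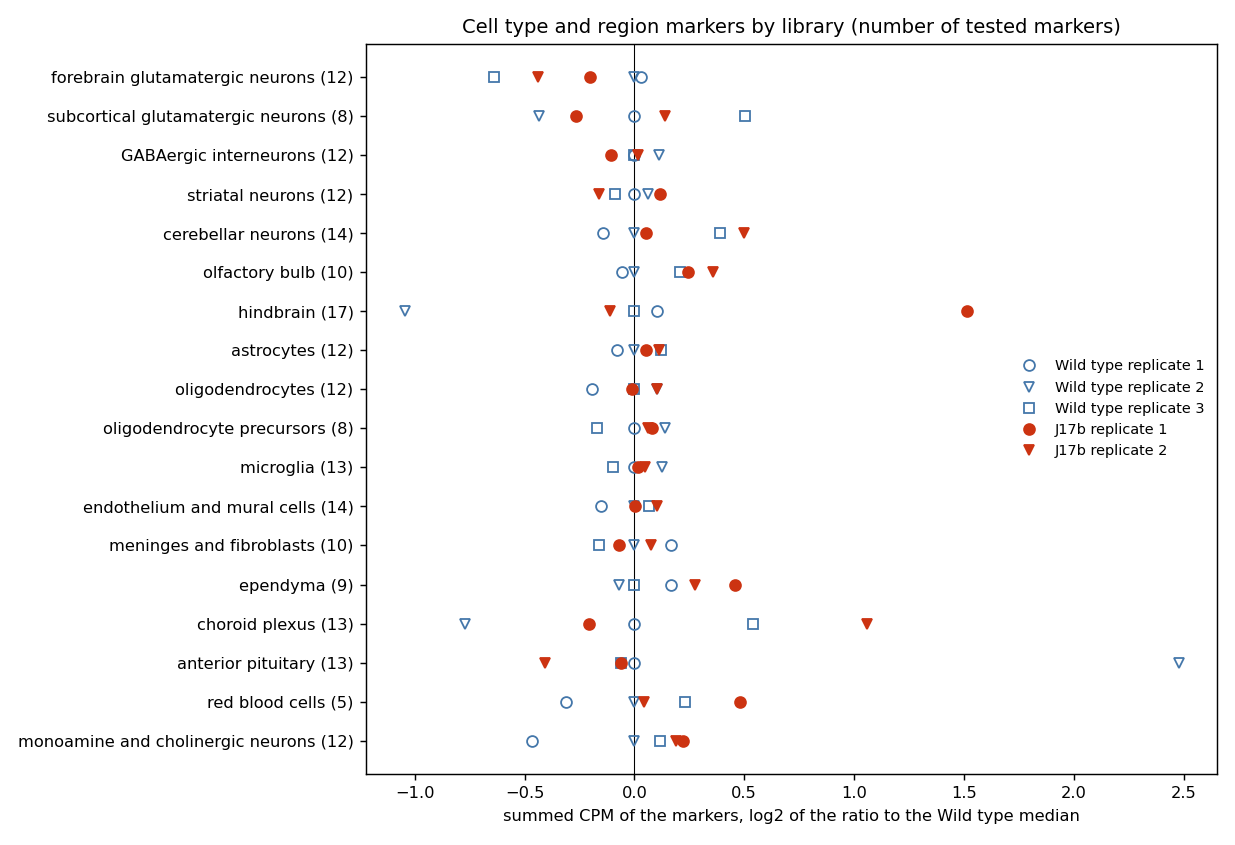
Summed CPM of the tested markers of each cell type or region in the 5 libraries, as log2 of the ratio to the Wild type median (open blue for Wild type, filled red for J17b). J17b replicate 1 is highest for hindbrain, at 71.0 CPM, and J17b replicate 2 for choroid plexus, at 2579 CPM, while Wild type replicate 2 stands apart for anterior pituitary and replicate 3 is lowest for forebrain glutamatergic neurons.

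Wild type replicate 3 bore on how many genes were called. Without it 54 genes were called (0.336% of those tested), 15 higher and 39 lower in J17b, and the 4 genes named above were among them. In 38 of these 54 the level in Wild type replicate 3 was at or beyond the nearer J17b library, and in 16 it was apart from both. Genes of the first kind, chosen after their values were seen, were Fam212b, at 96.5, 96.9 and 63.7 CPM in Wild type against 65.5 and 65.4 CPM in J17b, the adrenergic receptor gene Adra1d, at 43.6, 39.6 and 17.8 CPM against 25.2 and 23.3 CPM, and the immediate early gene Ier5, at 81.8, 83.4 and 28.6 CPM against 49.5 and 39.4 CPM. Nr4a3 (log2 fold change -1.15, edgeR adjusted p = 0.00893) was called in that fit and was of the second kind.

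J17b was also compared with the mean of the other 5 lines, which uses the same J17b libraries but no Wild type library. Here 2 genes were called, 0.0125% of those tested. Ide was lower by 0.59 on the log2 scale in J17b (95% interval of the log2 fold change -0.78 to -0.40, edgeR adjusted p = 0.0265) and Mapk8 by 0.54 (-0.72 to -0.36, adjusted p = 0.0265). Btaf1 (-0.44, adjusted p = 0.209) and Rn45s (1.81, adjusted p = 0.106) were not called in this comparison. Both calls were lost without J17b replicate 1 (edgeR adjusted p = 0.176 for Ide and 0.13 for Mapk8), J17b replicate 2 (0.095 and 0.515), J1 lf/lf replicate 2 (0.0566 for both) or J27b replicate 3 (0.0611 for both), and that of Mapk8 also without J2 lf/lf replicate 2 (0.0515). They were lost too with the replicate block (edgeR adjusted p = 0.103 for both) and limma (0.269 and 0.285 for both), and that of Mapk8 with a title number term (0.0692). The log2 fold changes ran from -0.73 to -0.47 for Ide and from -0.59 to -0.50 for Mapk8 over all alternatives.

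Limited to the 8 J17a, J27a and J27b libraries with a title number above 10, a fit added after seeing the data, 17 genes were called (0.108% of those tested), 8 higher and 9 lower in J17b. Ide (-0.73, edgeR adjusted p = 7.28e-05), Mapk8 (-0.55, adjusted p = 0.00127) and Btaf1 (-0.50, adjusted p = 0.00474) were among them and Rn45s was not. Reln, the secreted protein reelin, was at 204 and 227 CPM in J17b and 125 to 187 CPM in these libraries (0.52, adjusted p = 0.000462), with Wild type at 163, 164 and 203 CPM. Mt1, a metallothionein, was at 331 and 353 CPM against 203 to 257 CPM (0.56, adjusted p = 0.00243), but Wild type replicate 3 had 347 CPM. Lhx2, a forebrain transcription factor gene, was at 28.5 and 26.95 CPM against 35.05 to 44.9 CPM (-0.50, adjusted p = 0.031), below the Wild type libraries at 41.1, 47.2 and 29.3 CPM as well. The ion transporter gene Slc41a3 was at 15.7 and 15.3 CPM against 7.96 to 12.6 CPM (0.59, adjusted p = 0.0373) and 9.76, 11.5 and 9.67 CPM in Wild type. Other-line libraries with a title number of at most 10 had 11.1 to 15.4 CPM of Slc41a3, a range that holds J17b replicate 2. Wild type was not part of this fit, and the genes named from it, apart from Ide, Mapk8 and Btaf1, were chosen after their values were seen.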

How the data were processed

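The libraries were poly(A)-enriched and paired-end with reads of 150 bp, per the labels' protocols. The submitters' processing notes list cutadapt, RSEM and mm10. The authors deposited RSEM's estimated counts for each gene and, beside them, TPM. No version, annotation or strand setting is stated in these sources, so overlapping, antisense and near-identical genes (ribosomal precursor sequence included) are uncertain. The ratio of count to TPM of a gene was the same in every library (median SD 0.00244 on the log2 scale over 9617 genes), a fixed length, so the planned comparison of transcript lengths was not computed.

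Counts were rounded (4.11% of values were not whole) and tested with edgeR 4.0.16 in R 4.3.3: TMM, filterByExpr and robust quasi-likelihood fits with all 20 libraries and a mean per group. P-values are two-sided, adjusted by Benjamini-Hochberg over all genes at a threshold of 0.05; intervals are 95% intervals of the fit. With 2 against 3 libraries an exact permutation test cannot go below p = 0.1, so none is given. Levels are CPM with TMM factors. The steps were tested on simulated data. The members and lists were chosen with earlier results of these data known. Named are the called genes, the 15 largest rises and falls with a mean log2 CPM of at least 2 and no overlap of the groups, the 15 smallest p, the JNK genes, list members, and 10 tested neighbours on each side of Mapk8 and Ide by GENCODE release 21; predicted genes stay undescribed, and some named by this rule are not reported here. Of 44 lists 43 had a tested member, mitochondrially encoded genes having none. Alternatives were DESeq2 1.42.0 and its size factors, no filter, only the groups compared, a replicate block and limma 3.58.1 on log2(TPM + 1) and log2(TPM + 0.1). Others left out Rn45s or each library, or added a term for title numbers above 10. J17a, with numbers 10 to 12, is the line on both sides of 10. Its replicate 1 against replicates 2 and 3 thus sets that term. No 2 replicates within Wild type or within J17b were as close as sampling noise, and each library counted once. The other lines were not checked in this way, and the check cannot show that libraries came from separate mice.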

Additional observations from a re-analysis of the deposited data

How the results depend on the processing

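The number of genes called in J17b against Wild type was 4. It was 4 with DESeq2's size factors, 3 with no filter on low counts, 16 with the DESeq2 Wald test, 0 with only these groups in the edgeR fit (362 at an unadjusted p under 0.05), 1 with limma at either pseudocount, 2 with Rn45s left out and 2 with a title number term, and it ran from 1 to 54 when 1 library was left out (54 without Wild type replicate 3, 15 without J17b replicate 1, 2 without Wild type replicate 2 and 1 without J17b replicate 2). Against the other 5 lines 2 genes were called, 15 with the DESeq2 Wald test, 16 without Wild type in the fit, 0 with limma at either pseudocount, 17 with only title numbers above 10 (added after seeing the data), and 0 to 11 when 1 library was left out. With the replicate number as a block 1 gene was called against Wild type and 0 against the other lines by edgeR. The numbers were not taken to pair the samples, since only 2 are shared and no label ties them. Over 12040 genes the deviations of J17b replicate 1 correlated at 0.41 with Wild type replicate 1 and 0.20 with replicate 2, and those of J17b replicate 2 mirror them by centring, so they are no second check.

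These signs turned. Cpeb3 was at 0.01153 with the replicate block, 0.001917 and 0.00199 with limma, 0.001473 with Rn45s left out, and, with 1 library left out, from -0.03533 to 0.02788 (0.01569 without J17b replicate 1). Mapk9 was at 0.0008449 and 0.0009091 with limma and from -0.06398 to 0.0889 with 1 library left out, and March5 at 0.002203 and 0.002235 with limma. Map2k7 was at -0.007972 with the block and from -0.09286 to 0.08325 with 1 library left out. With the term for title numbers above 10, set by J17a alone, Gh was at 4.925, Hoxb5 at -2.205 and Tph2 at -0.3388. With 1 library left out Gh ran from -16.18 to 0.6285 and Ttr from -0.2062 to 1.264, and the list medians from -0.05341 to 0.01743 for amyloid degradation, -0.05348 to 2.395 for hindbrain markers -6.5 to 0.2892 for pituitary markers and -0.2666 to 0.9332 for choroid plexus markers. The cause was not tested. The length comparison and its alternatives were not run. The number of J17b libraries, 2, limits every result, and low genes such as Slc6a4 rest on few counts.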
